A study of Mus musculus with 26 samples.

Results

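The genes described here are 10 of the 55487 in the count tables: Tcf7l2 and Lef1, which encode nuclear effectors of Wnt signalling, and 8 genes used as markers of thalamic neurons, namely Slc17a6, Prkcd, Zic1, Zic4, Gbx2, Shox2, Lhx9 and Ntng1. They were chosen by their names with their HET against WT values and their levels in these libraries already known, so the difference between genotypes is given as a description: calls are printed beside the share of all genes called, and nothing is read from them. All 10 passed the filter on low counts that left 18050 genes. The samples were frontal cortex of adolescent mouse littermates that were wild type (WT) or carried a heterozygous Adnp frameshift mutation (HET, labelled Mutant in the sample titles). Adnp encodes a zinc-finger homeodomain protein of chromatin complexes. RNA sequencing covered 7 HET and 7 WT libraries, called by genotype and replicate number, and open chromatin (ATAC-seq) was given as 1 merged peak list per genotype. The labels name no strain and no sex for these animals.

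TCF7L2 and LEF1 are high-mobility-group proteins that bind DNA and recruit beta-catenin, which accumulates in the nucleus when Wnt ligands act on a cell. In the forebrain of the mouse, Tcf7l2 and Lef1 are known from the thalamus and the habenula, and Tcf7l2 also from oligodendrocytes as they mature. Thalamic relay neurons use the vesicular glutamate transporter of Slc17a6, whereas excitatory neurons of the neocortex mostly use that of its paralog Slc17a7, and the homeodomain genes Gbx2, Shox2 and Lhx9 are known for roles in the development of thalamic nuclei.

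Promoters of 3 members are shown because the data or a motif search bear on them: that of Tcf7l2 because a peak of the HET list lies on it, and those of Prkcd and Shox2 because they hold the core TCF/LEF motif. The sequences are from RefSeq on GRCm38.p6, run 5′ to 3′ on the gene's strand, and hold 250 bases before and 50 after the RefSeq start. In the Tcf7l2 promoter (chr19:55741560-55741859, plus strand) capitals mark the bases under the HET peak, and in those of Prkcd (chr14:30626159-30626458, minus strand) and Shox2 (chr3:66981722-66982021, minus strand) they mark the motif CTTTGA, which reads TCAAAG where it lies on the other strand.
Tcf7l2: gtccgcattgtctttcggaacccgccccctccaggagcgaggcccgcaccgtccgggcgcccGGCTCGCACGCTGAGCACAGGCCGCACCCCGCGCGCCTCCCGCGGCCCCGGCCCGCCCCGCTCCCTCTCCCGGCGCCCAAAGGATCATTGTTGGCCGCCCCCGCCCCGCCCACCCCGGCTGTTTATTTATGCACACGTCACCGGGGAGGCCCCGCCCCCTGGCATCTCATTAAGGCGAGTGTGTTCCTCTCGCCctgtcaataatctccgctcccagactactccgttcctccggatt
Prkcd: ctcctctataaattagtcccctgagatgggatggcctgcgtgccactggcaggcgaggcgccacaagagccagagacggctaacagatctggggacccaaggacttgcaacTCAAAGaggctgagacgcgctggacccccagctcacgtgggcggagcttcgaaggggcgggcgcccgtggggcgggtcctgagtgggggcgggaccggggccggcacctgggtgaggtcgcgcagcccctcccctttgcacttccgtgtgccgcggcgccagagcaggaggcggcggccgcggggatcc
Shox2: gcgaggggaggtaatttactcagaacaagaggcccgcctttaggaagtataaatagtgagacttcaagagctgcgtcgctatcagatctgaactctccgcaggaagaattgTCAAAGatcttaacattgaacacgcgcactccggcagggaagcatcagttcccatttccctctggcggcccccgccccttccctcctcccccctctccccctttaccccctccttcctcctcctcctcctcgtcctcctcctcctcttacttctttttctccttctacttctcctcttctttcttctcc

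CTTTGA on either strand was present in 16.0% of the 32851 RefSeq promoters of this length, and among the 10 members in Prkcd, Zic4 and Shox2. It began 139 bases before the start in both Prkcd and Shox2, and the match in Zic4 lay 22 bases after a RefSeq start that is 6559 bases from the gene start of the count annotation. The RefSeq start of the Lhx9 window was likewise 6133 bases from its counted gene start. The homeodomain motif TAATTA, in 5.29% of all promoters, was in none of the 10 windows chosen, and the ZIC motif CCTGCTG, in 10.5%, was in that of Lef1. Windows of other RefSeq starts were left out of these counts. Another Lef1 start had CTTTGA 180 and 120 bases before it, and another Slc17a6 start had TAATTA 81 bases before it. These matches describe letters only. The Tcf7l2 window had a GC content of 70.0%, against a median of 52.7% over all promoters and 62.2% over the 10 members.

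Each library held between 32814841 and 48291175 counts. Adnp itself stood at 5.34 to 8.68 CPM (counts scaled to library size by TMM) in HET, with a median of 6.43, and at 5.67 to 7.84 in WT, with a median of 6.19. A frameshift need not change the mRNA level, so these values do not check the labels. All libraries are labelled frontal cortex, but they differed in markers of the cortex and of other regions. The summed level of 12 cortical excitatory neuron markers ran from 950.9 CPM in HET 4 and 1606 in HET 1 to 4776 in HET 6, and in WT from 2350 in WT 4 to 5846 in WT 3. In HET 4 the pallial marker Emx1 stood at 0.154 CPM and Neurod6 at 1.13, against at least 3.77 and 17.4 CPM in every WT library. Results are therefore also given without HET 4, and without the libraries lowest in these cortical markers.

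All 10 members had a higher mean in HET than in WT, and for each of them the ranges of the genotypes overlapped. HET 4 held the highest level of all 10, which was also the case for 15.3% of the genes tested. HET 6 was the lowest HET library for every member but Lhx9, and was above the WT median for 3 of the 10 genes. HET 1, HET 3, HET 4, HET 5 and HET 7 were above that median for all 10. Among WT libraries, WT 7 was above the WT median for all 10 and WT 2 and WT 3 for none. In bulk tissue, more cells of a type and more RNA per cell cannot be told apart.

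**Figure D1:**
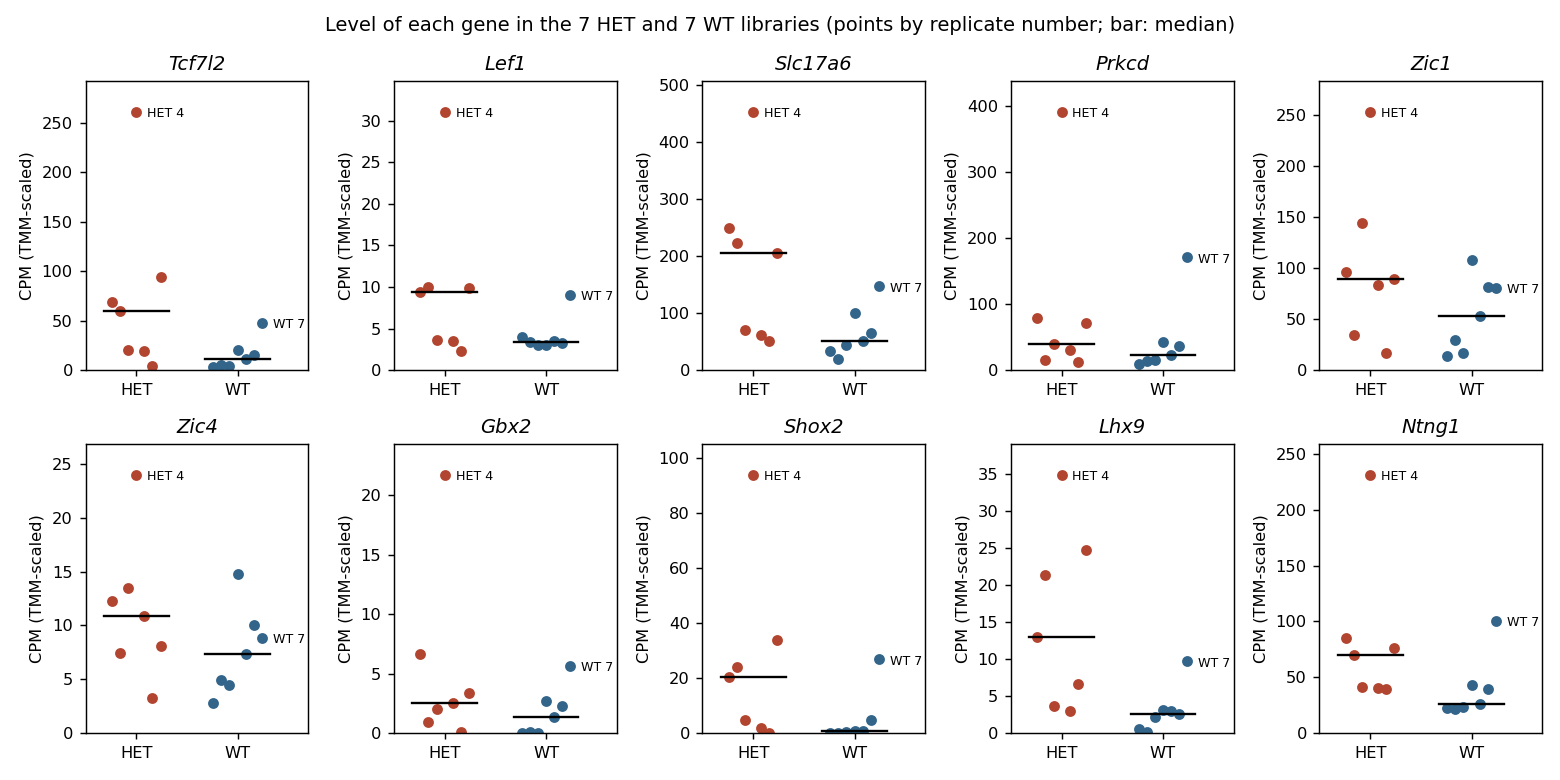
Level of each of the 10 genes in CPM (counts scaled to library size by TMM, linear axes from 0), with 1 point per library in order of replicate number and a bar at the median of the 7 libraries of each genotype. HET 4 is the highest point in every panel, and the points of the genotypes overlap in every panel.

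Tcf7l2 (ENSMUSG00000024985, GRCm38 chromosome 19, 55741820 to 55933654, plus strand) stood at 4.40 to 261.2 CPM in HET with a median of 59.9, and at 3.46 to 48.1 in WT with a median of 11.03. The HET libraries fell into 4 high ones, HET 4 at 261.2, HET 7 at 93.8, HET 1 at 69.4 and HET 2 at 59.9 CPM, each above the highest WT library, and 3 within the WT range, HET 3 at 20.2, HET 5 at 19.1 and HET 6 at 4.40. The WT libraries were also uneven, with WT 1, WT 2 and WT 3 between 3.46 and 4.81 CPM and WT 7 at 48.1. Means were 75.4 ± 87.9 CPM in HET and 15.3 ± 15.8 in WT (SD, n = 7 each), and the fitted log2 fold change, HET minus WT, was 2.30 (SE 0.81). HET 4 alone held 41.1% of the summed Tcf7l2 level of the 14 libraries, and without it the log2 fold change was 1.54, against 2.94 without WT 7.

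Lef1 (ENSMUSG00000027985, chromosome 3, 131110471 to 131224356, plus strand) was low in both genotypes, at 2.35 to 31.0 CPM in HET with a median of 9.35 and at 3.07 to 9.05 in WT with a median of 3.44. In 6 of the 7 WT libraries it lay between 3.07 and 3.98 CPM, and WT 7 alone stood above them. The same 4 HET libraries that were high in Tcf7l2 were high in Lef1, HET 4 at 31.0, HET 2 at 9.97, HET 7 at 9.87 and HET 1 at 9.35 CPM, and the other 3 lay between 2.35 and 3.60. Between HET and WT it differed by 1.25 on the log2 scale (SE 0.51), and by 0.62 without HET 4. An antisense gene, Gm43352, shares 13.7% of the exon bases of Lef1, and reads there were left out because the authors' counting ignored strand.

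Slc17a6, the vesicular glutamate transporter VGLUT2 (ENSMUSG00000030500, chromosome 7, 51622006 to 51671119, plus strand), stood at 51.8 to 453.2 CPM in HET with a median of 206.1, and at 19.1 to 147.0 in WT with a median of 51.3. Again HET 4, HET 1, HET 2 and HET 7 exceeded every WT library, at 453.2, 249.0, 222.4 and 206.1 CPM, and all 7 HET libraries lay above the WT median. Its fitted log2 fold change was 1.51 (SE 0.54), and 1.13 without HET 4.

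Its paralog Slc17a7, which encodes VGLUT1, ran the other way across libraries: it was lowest in HET 4 at 138.1 CPM and HET 1 at 320.4, and highest in WT 1 at 1844 CPM. On the log2 scale it differed by -0.86 between HET and WT (SE 0.42), with an edgeR adjusted p of 0.244.

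Prkcd, protein kinase C delta (ENSMUSG00000021948, chromosome 14, 30595354 to 30626210, minus strand), stood at 12.9 to 390.4 CPM in HET with a median of 39.0, and at 9.85 to 170.6 in WT with a median of 23.4. Only HET 4 exceeded the highest WT library, WT 7. HET 2, which was high in Tcf7l2 and Slc17a6, was low in Prkcd at 15.9 CPM. The log2 fold change of 1.03 (SE 0.82) became -0.11 without HET 4 and 1.94 without WT 7.

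Zic1, a zinc-finger transcription factor (ENSMUSG00000032368, chromosome 9, 91358058 to 91365810, minus strand), stood at 16.5 to 253.2 CPM in HET with a median of 89.3, and at 13.7 to 108.0 in WT with a median of 53.5. Its neighbour and paralog Zic4 (ENSMUSG00000036972, 91362413 to 91389348, plus strand) stood at 3.21 to 24.0 CPM in HET with a median of 10.9, and at 2.79 to 14.8 in WT with a median of 7.35. The order of libraries differed from that of Tcf7l2: HET 3 came after HET 4 in Zic1, at 144.7 CPM, and the highest WT library for both genes was WT 4, at 108.0 and 14.8 CPM, not WT 7. Log2 fold changes were 0.90 (SE 0.57) for Zic1 and 0.57 (SE 0.41) for Zic4, and 0.50 and 0.27 without HET 4.

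Gbx2, a homeobox gene (ENSMUSG00000034486, chromosome 1, 89927956 to 89931179, minus strand), stood at 0.0521 to 21.7 CPM in HET with a median of 2.52, and at 0 to 5.63 in WT with a median of 1.38. Single libraries of both genotypes had next to none: 0 counts in WT 1 and WT 3, which allow up to 0.0776 and 0.0697 CPM (3 counts, counting error only), and 2 counts each in WT 2 and HET 6. Fitted over all libraries, the log2 fold change was 1.63 (SE 1.10), with 0.59 without HET 4 and 2.32 without WT 7. The antisense gene D130058E05Rik shares 43.5% of the exon bases of Gbx2, so its counts come from the remaining part of its exons.

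Shox2, a homeobox gene (ENSMUSG00000027833, chromosome 3, 66971727 to 66981771, minus strand), ran from 0.104 CPM in HET 6 to 94.0 in HET 4 with a median of 20.5, and in WT from 0.0517 to 26.8 with a median of 0.672. Its highest HET library stood 902-fold above its lowest, the largest such ratio of the 10 within HET, followed by 417-fold for Gbx2. Both ratios divide by HET 6, with 4 counts for Shox2 and 2 for Gbx2, so their size and order are uncertain. WT 1 to WT 5 all lay under 1 CPM, between 0.0517 and 0.796, WT 6 stood at 4.73 and WT 7 at 26.8. HET 4 and HET 7 alone exceeded WT 7. The log2 fold change of 2.43 (SE 1.28) was 1.58 without HET 4 and 4.56 without WT 7.

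Lhx9, a LIM-homeodomain gene (ENSMUSG00000019230, chromosome 1, 138825186 to 138848577, minus strand), stood at 2.99 to 35.0 CPM in HET with a median of 13.0, and at 0.190 to 9.72 in WT with a median of 2.54. HET 4, HET 7, HET 2 and HET 1 exceeded every WT library, at 35.0, 24.7, 21.4 and 13.0 CPM, and all 7 HET libraries lay above the WT median. Its log2 fold change of 2.34 (SE 0.73) was 2.00 without HET 4 and 3.00 without WT 7, the lowest and the highest over the 14 fits that each left out 1 library.

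Ntng1, which encodes netrin-G1, a membrane-anchored protein of thalamocortical axons (ENSMUSG00000059857, chromosome 3, 109780040 to 110144011, minus strand), stood at 39.1 to 231.6 CPM in HET with a median of 70.2, and at 21.7 to 100.5 in WT with a median of 26.1. All 7 HET libraries lay above the WT median, but only HET 4 above WT 7. The log2 fold change was 1.08 (SE 0.46), and 0.57 without HET 4.

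**Figure D2:**
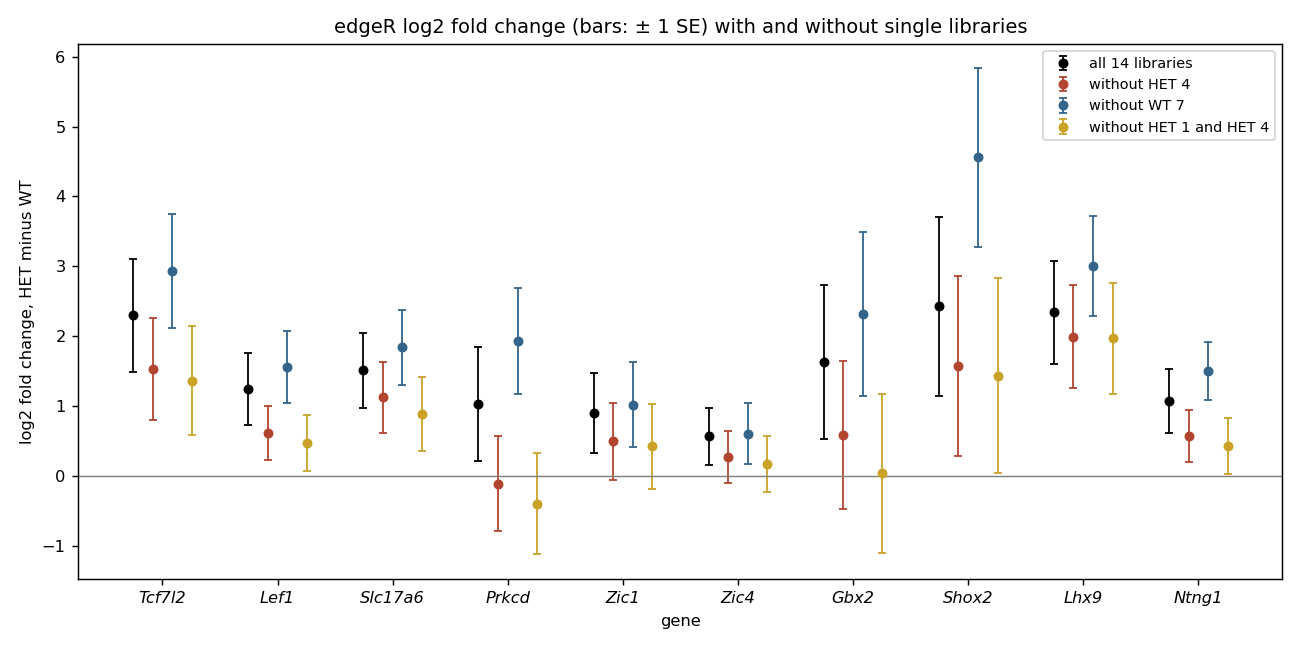
Fitted log2 fold change of each gene, HET minus WT, with bars of 1 SE, over all 14 libraries, without HET 4, without WT 7, and without HET 1 and HET 4. Prkcd lies below 0 without HET 4, and Shox2 runs from 1.43 without HET 1 and HET 4 to 4.56 without WT 7.

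In edgeR's quasi-likelihood test over all genes, 0 of the 10 members passed an adjusted p of 0.05, against 0.970% of the genes tested (0.587% higher in HET). At an unadjusted p under 0.05 there were 5 of 10, all higher in HET, against 22.2% of all genes (11.8% higher in HET). DESeq2 called 2, Lhx9 and Tcf7l2, against 8.38% of all genes (4.28% higher in HET), and limma-voom with sample weights called 1, Slc17a6, against 10.7% (5.26% higher in HET). EdgeR called 0 of the 10 as well with the replicate number as a block (0.0554% of all genes), without HET 4 (0.104%), without HET 6 (6.09%), without WT 4 (9.18%), without HET 1 and HET 4 (0.0704%) and without HET 1, HET 4 and WT 4 (3.78%). The fitted log2 fold change was above 0 for all 10, as for 53.3% of all genes, and at least 1 for 8 of 10, as for 2.14%. Since this contrast chose the members, nothing is read from these counts. Their median log2 fold change was 1.38, against 0.02 over all genes; without HET 4 it was 0.61, and without HET 1 and HET 4, the 2 libraries lowest in cortical markers, 0.46.

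On a scale that allows genes to be compared, RPKM (CPM per kilobase of exon), the order of mean levels in WT was Slc17a6 at 12.2, Zic1 at 9.63, Prkcd at 8.09, Ntng1 at 4.80, Tcf7l2 at 1.72, Shox2 at 1.44, Gbx2 at 0.787, Zic4 at 0.736, Lef1 at 0.477 and Lhx9 at 0.318. Of the 9 pairs of neighbours in that order, Ntng1 over Tcf7l2 and Lef1 over Lhx9 held in all 7 WT libraries, and the other pairs did not keep their order in every library. In HET the order was the same from Slc17a6 at 34.8 down to Gbx2 at 2.44 RPKM, and Lhx9 at 1.61 then stood above Lef1 at 1.13 and Zic4 at 1.09. No pair of neighbours kept its order in all 7 HET libraries, and Lhx9 stood above Lef1 in 5 of them. These values divide by the full exon length, although reads in shared exon bases were not counted, and so understate Gbx2 and Lef1. Per kilobase of exon shared with no other gene, a length chosen after the data were seen, Gbx2 stood at 1.39 in WT and 4.32 in HET, and Lef1 at 0.553 and 1.31. On that length the order of the 10 means was the same in each genotype, the same 2 pairs held in all 7 WT libraries, and Lhx9 stood above Lef1 in 4 of the 7 HET libraries.

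Most pairs of the 10 genes moved together across libraries within each genotype, with a Pearson r above 0.5 for 41 of 45 pairs in each. By rank, Lef1 did not follow the other members in WT. Its Spearman's rho with them ran from -0.18 (Zic1 and Zic4) to 0.23 (Gbx2). Over the 45 pairs, the median Pearson r of log2 CPM was 0.81 in the 7 HET libraries, from 0.19 to 0.98, and 0.80 in the 7 WT libraries, from 0.06 to 0.98. Without HET 4, the median over the 6 HET libraries left was 0.67. These values describe points that share library, dissection and sequencing depth, and no p is attached to them. No median over pairs of other genes is given beside them.

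**Figure D3:**
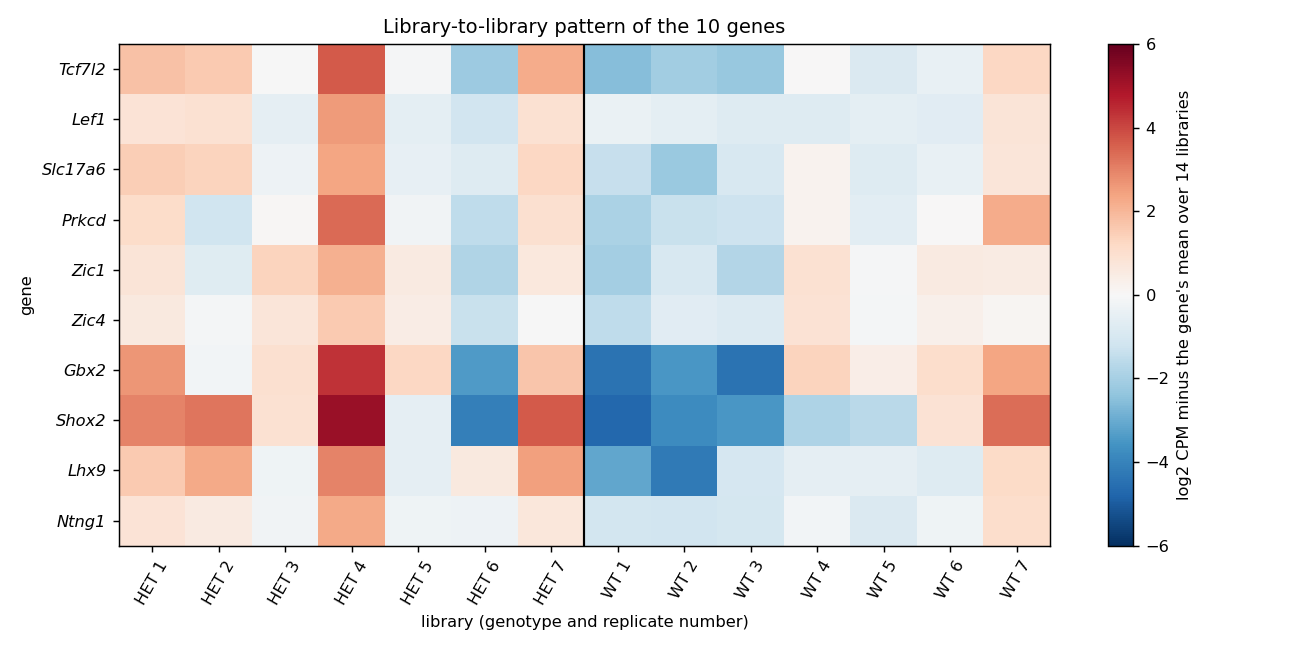
Log2 CPM of each gene minus its mean over the 14 libraries (colour), with libraries in columns and genes in rows. HET 4 is the darkest red column, WT 1 to WT 3 and HET 6 are blue for most genes, and HET 2 is red for Tcf7l2, Lef1, Slc17a6, Shox2 and Lhx9 but blue for Prkcd and Zic1.

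The pairs differed. Tcf7l2 and Shox2 had r = 0.98 in HET and 0.92 in WT, and Lef1 and Slc17a6 0.98 in HET but 0.53 in WT, where Lef1 varied little outside WT 7. Tcf7l2 and Lef1 had r = 0.96 in HET and 0.61 in WT (Spearman's rho 0.89 and 0.14). Among Zic1, Zic4 and Gbx2, 3 genes grouped here after their values were seen, r lay between 0.93 and 0.96 in HET and between 0.89 and 0.97 in WT. They were not set apart from the rest: Gbx2 also had r = 0.96 with Tcf7l2 in WT and 0.90 with Prkcd in HET. Lhx9 was nearly unrelated to Zic1 and Zic4 in HET (r = 0.19 and 0.23), with -0.18 for each without HET 4, whereas in WT it had r = 0.64 and 0.65.

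**Figure D4:**
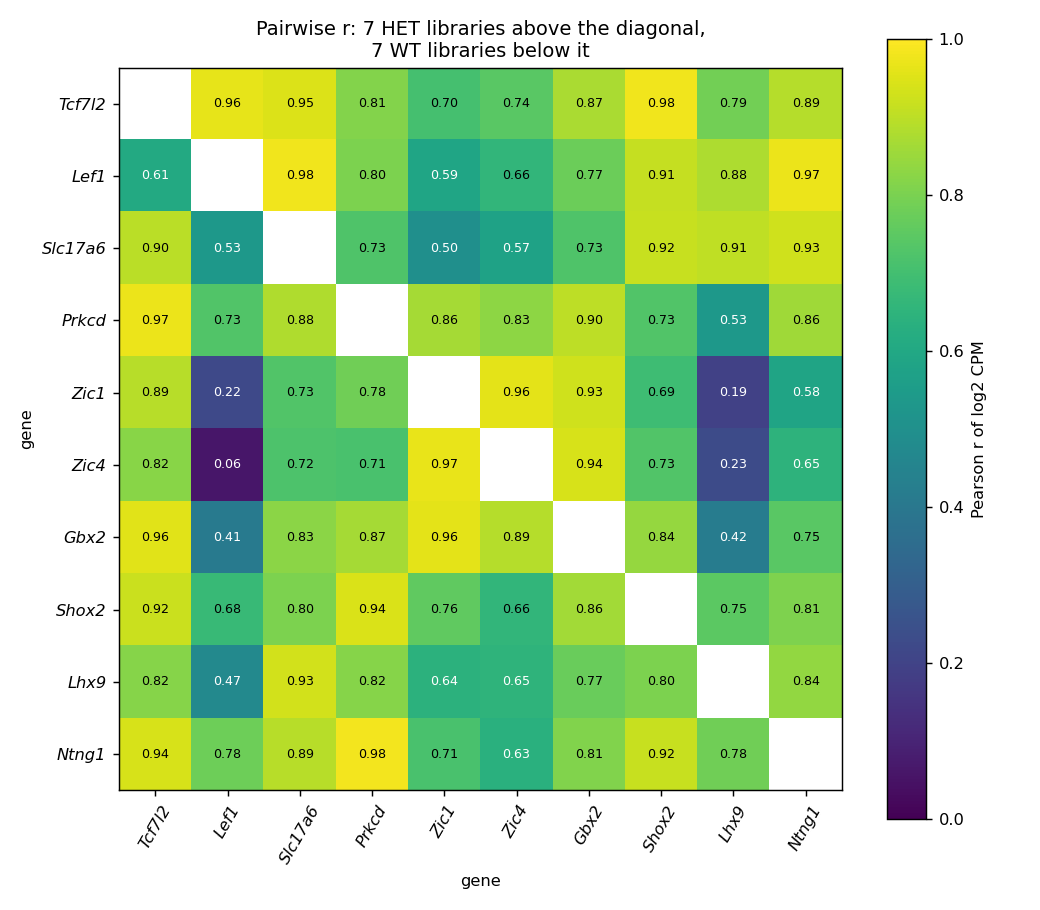
Pearson r of log2 CPM for every pair of the 10 genes, over 7 HET libraries above the diagonal and 7 WT libraries below it. Values run from 0.19 (Zic1 and Lhx9) to 0.98 in HET and from 0.06 (Lef1 and Zic4) to 0.98 in WT.

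Of 20 other thalamic genes, 19 were tested and 0 passed in edgeR (0.970% of all genes). At an unadjusted p under 0.05 there were 4 of 19, all higher in HET, against 22.2% of all genes (11.8% higher in HET). DESeq2 called 0 (8.38% of all genes) and limma-voom 1, Esrrg (10.7%). Their median log2 fold change was 0.79, 0.17 without HET 4 and 0.02 without HET 1 and HET 4. The most abundant of them in WT, Adarb1, which encodes an RNA-editing enzyme, stood at 322 ± 156 CPM in HET and 268 ± 52.3 in WT (SD, n = 7 each), with 655.1 CPM in HET 4. The mean log2 CPM of this list had r with the 10 members from 0.71 (Lhx9) to 0.97 (Prkcd) in HET and from 0.58 (Zic4) to 0.98 (Prkcd) in WT. Its genes did not all go one way: the log2 fold change was above 0 for 16 of 19 and below 0 for Lhx2 (-0.52), Cdh6 (-0.31) and Cdh8 (-0.11), and Lhx2 was at its lowest in HET 4, at 17.1 CPM.

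Markers of further regions also differed between libraries, and their part in the levels of the 10 genes was not tested. Of 10 hypothalamic markers, 9 were tested. EdgeR (0.970% of all genes), DESeq2 (8.38%) and limma-voom (10.7%) called 0 of them, and 0 had an unadjusted p under 0.05 (22.2%). The summed level of all 10 was 424.2 CPM in HET 4, 407.0 in HET 1 and 235.8 in WT 4. It was 9.97 CPM in the lowest HET library, HET 2. In WT 1 to WT 3 it was 2.20 to 3.77 CPM, and Oxt (oxytocin) was at 0.155, 0.379 and 0 CPM there. Of 8 habenular markers 0 passed in edgeR (0.970% of all genes), whereas DESeq2 called 2 (8.38%) and limma-voom 1 (10.7%), all higher in HET. At an unadjusted p under 0.05 there were 4, all higher in HET, against 22.2% of all genes (11.8% higher in HET). Over the 8 markers the median log2 fold change was 1.54, with 0.96 without HET 4 and 0.51 without HET 1 and HET 4. Without HET 1, HET 4 and WT 4 it was 0.45. Their sum ran from 33.2 (HET 6) to 151.0 CPM (HET 4) in HET and from 39.1 to 66.3 in WT. Pou4f1, a transcription factor of the habenula picked here for mention after its values were seen, stood at 12.1 CPM in HET 2, 10.8 in HET 4, 9.28 in HET 7 and 5.60 in HET 1, at 2.59 in WT 7, and at most 0.373 in the other 9 libraries, with 0 in WT 1. Of 10 markers of midbrain and hindbrain, 3 were tested. EdgeR (0.970% of all genes) and limma-voom (10.7%) called 0 of these, and DESeq2 called 2, higher in HET (8.38% of all genes, 4.28% higher in HET). All 3 were higher in HET at an unadjusted p under 0.05 (22.2% of all genes, 11.8% higher in HET). The median log2 fold change of the 3 tested was 2.07, with 2.22 without HET 4 and 2.26 without HET 1 and HET 4. The sum of all 10 ran from 3.28 to 202.3 CPM in HET, highest in HET 1, HET 2 and HET 7, and from 1.67 to 29.0 in WT. Of 10 striatal markers 0 passed in edgeR (0.970% of all genes), DESeq2 (8.38%) or limma-voom (10.7%), and 0 at an unadjusted p under 0.05 (22.2%). Their sum ran from 234.8 to 3038 CPM in HET, highest in HET 5 and HET 3, and from 238.6 to 2150 in WT, highest in WT 4.

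Single members followed these lists in different ways. Tcf7l2 had r with the habenular mean of 0.95 in both genotypes. With the mean of 8 mature oligodendrocyte markers it had r = 0.92 in HET and 0.90 in WT. Neither was particular to Tcf7l2. Over all members, r with the habenular mean ran from 0.65 (Zic1) to 0.97 (Slc17a6) in HET. In WT it ran from 0.71 (Lhx9) to 0.98 (Prkcd). For the oligodendrocyte list the range was 0.52 (Lhx9) to 0.95 (Shox2) in HET and 0.30 (Lef1) to 0.91 (Zic4) in WT. That list summed to 2202 to 9884 CPM in HET, lowest in HET 6 and highest in HET 4, and to 4310 to 7428 in WT. EdgeR (0.970% of all genes), DESeq2 (8.38%) and limma-voom (10.7%) called 0 of its 8 genes, and 0 had an unadjusted p under 0.05 (22.2%). Zic1 had r with the striatal mean of 0.09 in HET and 0.95 in WT, and with the hypothalamic mean of 0.68 and 0.96, whereas Lhx9 had r with the striatal mean of -0.94 in HET and 0.41 in WT. In WT, Zic1 and Zic4 had r = 0.97 and 0.92 with the mean of 8 markers of prethalamus and reticular nucleus. With 5 septal markers it was 0.93 and 0.95, and with the other thalamic genes 0.69 and 0.58. In HET the same values were 0.58 and 0.57, 0.53 and 0.44, and 0.79 and 0.80. With the cortical excitatory mean, r was -0.78 and -0.70 for Tcf7l2, -0.89 and -0.58 for Prkcd, and -0.84 and -0.02 for Lef1.

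**Figure D5:**
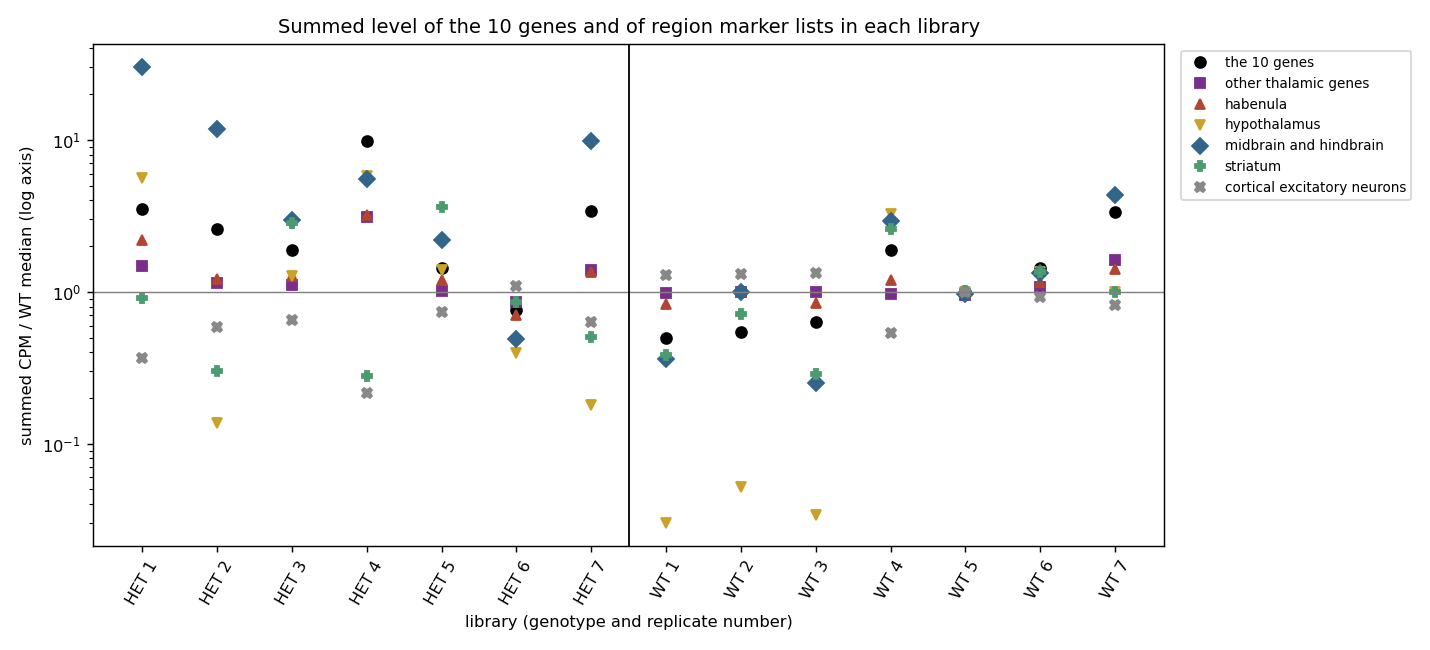
Summed CPM of the 10 genes and of 6 marker lists in each library, divided by the median of the WT libraries (log axis). The 10 genes are highest in HET 4, at 9.90 times the WT median, where the cortical excitatory list is lowest, at 0.217 times.

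With the mean of the cortical excitatory markers as a covariate, a fit chosen after the data were seen, the log2 fold change of Lhx9 was 1.60, of Tcf7l2 0.76 and of Shox2 0.68, and those of Prkcd, Gbx2, Zic4 and Zic1 lay below 0. The covariate was not separate from genotype: of its 12 markers, 11 had a log2 fold change below 0, with a median of -0.87 in edgeR. At an unadjusted p under 0.05, 7 were lower in HET (22.2% of all genes in either direction). EdgeR called 0 (0.970%), DESeq2 2 (8.38%) and limma-voom 5 (10.7%), all lower. This fit therefore cannot tell genotype and cortical marker level apart. Without HET 1, HET 4 and WT 4, the 3 libraries lowest in these markers, Lhx9 stood at 1.97, Tcf7l2 at 1.45 and Prkcd at -0.41.

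Of 19 genes for partners of TCF/LEF proteins and the beta-catenin core, 1 rose and 0 fell in edgeR, against 0.970% of all genes, with 3 higher and 3 lower at an unadjusted p under 0.05 (22.2% of all genes). In DESeq2 1 passed in each direction (8.38% of all genes called), and in limma-voom 2 in each (10.7%). The one that rose in edgeR was Hbp1, an HMG-box repressor of Wnt signalling, at 13.2 to 15.7 CPM in HET with a median of 14.6 and at 10.1 to 12.9 in WT with a median of 11.6. Every HET library lay above the highest WT library, which held in that direction for 0.432% of all genes, and the log2 fold change was 0.33 (SE 0.07, adjusted p 0.0474). The call was kept without HET 6 or without WT 4 and lost without any other single library, with adjusted p from 0.0139 to 0.112 and a log2 fold change from 0.30 to 0.36 over these 14 fits. It was also lost without HET 1 and HET 4 (edgeR adjusted p 0.131), with the replicate block (0.0978), without the filter on low counts (0.0981) and with the cortical covariate (0.189), and kept without HET 1, HET 4 and WT 4 (0.0289), in DESeq2 (0.00204) and in limma-voom (0.0111). Nlk, which encodes a kinase that phosphorylates TCF/LEF proteins and was picked for mention after its values were seen, stood at 73.8 ± 20.7 CPM in HET and 122.8 ± 34.0 in WT (SD, n = 7 each), lowest in HET 4 at 39.8. Its log2 fold change was -0.73 (SE 0.21, edgeR adjusted p 0.0828), and DESeq2 and limma-voom called it lower. Beta-catenin itself, Ctnnb1, stood at 391 ± 39.6 CPM in HET and 351 ± 28.8 in WT (SD, n = 7 each), a difference of 0.16 on the log2 scale (edgeR, adjusted p 0.212). Apc, the scaffold of the complex that degrades beta-catenin and the most abundant of this list in WT, differed by -0.30 on that scale (edgeR, adjusted p 0.240).

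Of 12 established target genes of TCF/LEF, 0 passed in edgeR (0.970% of all genes), with 3 higher and 2 lower in HET at an unadjusted p under 0.05 (22.2% of all genes). DESeq2 called 3 (8.38% of all genes) and limma-voom 3 (10.7%), in both 2 higher and 1 lower. Their median log2 fold change was 0.08. Axin2, a feedback inhibitor of Wnt signalling, stood at 21.0 to 27.7 CPM in HET and at 17.9 to 27.0 in WT. Nearest to the threshold were Tnfrsf19, the most abundant of the list in WT, at -0.49 on the log2 scale (edgeR, adjusted p 0.0528), and Nkd2, which encodes an inhibitor of Dishevelled, at 1.00 (edgeR, adjusted p 0.0586). Nkd2 was chosen for mention after its values were seen. The mean log2 CPM of the targets had r with Tcf7l2 of 0.91 in HET and 0.34 in WT, and with Lef1 of 0.89 and 0.41. These values were not particular to the TCF/LEF genes. Over all members r ran from 0.40 (Zic1) to 0.93 (Shox2) in HET, with 0.90 for Slc17a6. In WT it ran from 0.0043 (Slc17a6) to 0.41 (Lef1). With the mean of the partner and beta-catenin genes, r was negative for every member in both genotypes. It was -0.87 in HET and -0.86 in WT for Tcf7l2, and -0.94 and -0.84 for Lef1.

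Genes whose library pattern was most like that of Tcf7l2 were ranked by Pearson r of log2 CPM over the 14 libraries, among 13638 genes. The first 10 were Patj (r = 0.97), Slc6a9 (0.97), Slc6a11 (0.96), Fhdc1 (0.96), Nacc2 (0.96), Lrrc75b (0.96), Rhobtb3 (0.96), Amotl1 (0.96), which is also in the list of other thalamic genes, Tunar (0.96) and Kcnh2 (0.95). Patj, which encodes a scaffold protein of cell junctions, stood at 41.2 ± 30.2 CPM in HET and 15.8 ± 13.8 in WT (SD, n = 7 each) and at 102.1 in HET 4. By the mean of the r within each genotype, the first 10 were Patj, Arsg, Vegfb, Efhd1, Slc6a9, Gng11, Fhdc1, Phlda3, Fam234a and Prr18, with means from 0.99 for Patj to 0.96 for Prr18. Vegfb moved in step with Tcf7l2 within genotypes (r = 0.96 in HET and 0.97 in WT) at almost the same level in both, 62.9 ± 4.12 and 63.4 ± 3.46 CPM.

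For Lef1 the first 10 over the 14 libraries were Rsrc1 (r = 0.97), Plcb4 (0.97), Pkp4 (0.97), Lgi3 (0.95), Zbtb7b (0.95), Mcf2 (0.94), Vav3 (0.94), Mreg (0.94), Eif5a2 (0.94) and Ubxn2a (0.93), none of which is among those of Tcf7l2. Rsrc1 (chromosome 3, 66981390 to 67358396) shares 153 exon bases with Shox2 on the opposite strand, and reads there were left out of both.

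The peak lists, which the RNA values did not enter, held a peak within 5 kb of the gene start for 3 of the 10 members in HET, Tcf7l2, Shox2 and Ntng1, and for 2 in WT, Shox2 and Ntng1. Among all genes tested the shares were 71.2% and 63.5%. The HET list is longer, with 30862 peaks against 19272, and neither carries a height or a depth. The peak at Tcf7l2 (chr19:55741622-55741815, 194 bases) lies from 198 to 5 bases before the gene start and is the stretch in capitals in the promoter printed above. It was not among the 19272 widest HET peaks, a number equal to the WT list, and the nearest WT peak lay 198.7 kb away.

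At Shox2 both lists had a peak 3.9 kb before the start, chr3:66985652-66986069 in HET and chr3:66985632-66985929 in WT, with 278 bases in common. At Ntng1 both had one inside the gene, chr3:110141775-110142140 in HET and chr3:110141812-110142293 in WT, with 329 bases in common. Lhx9 had a peak in both lists 7.98 kb before its start, outside the window. Zic1 and Zic4 had a HET peak 15.7 kb and 19.1 kb from their starts, the same one, and none in WT within 884.4 kb. For Slc17a6, whose RNA was the highest of the members per length, the nearest peak lay 193.7 kb away in HET and 193.8 kb in WT.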

How the data were processed

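RNA of frontal cortex was sequenced in 7 HET and 7 WT libraries. The deposited values are raw counts per gene; featureCounts 2.0.1 made them from exon reads of each gene ID (Ensembl GRCm38, release 102), ignoring strand and without an option for read pairs, so mates can count singly, per the file headers. The submitters' processing notes name STAR, Trimmomatic and Subread, with GRCm38.p6 as the build. The other deposited values are peak coordinates (chromosome, start and end on mm10), 1 list per genotype; the sources used here do not say which of the 3 HET and 3 WT ATAC-seq samples went into them. Samples of other assays or labels were not analysed here.

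Counts were filtered with filterByExpr, TMM-scaled and fitted in edgeR 4.0.16 (robust quasi-likelihood, two-sided, Benjamini-Hochberg over 18050 genes), a procedure tested on simulated data. That simulation gave all genes the same spread between libraries, so it does not speak to power for the members, which varied widely. Log2 CPM used a prior count of 2. No library pair was alike within sampling noise (chi-square per degree of freedom at least 10.1 over 91 pairs). The labels give 7 mice per genotype, so p-values measure the spread between them. The members and the 20 gene lists (198 of 199 entries matched an ID) were chosen with earlier results of these data known. Named genes were the members, up to 3 called genes and the most abundant WT gene of each list where described, and the 10 most alike genes. Alternatives were DESeq2 1.42.0, limma-voom (limma 3.58.1) with sample weights, other scaling and filters, the replicate number as a block, each library left out, other peak windows and, chosen after seeing the data, fits without the libraries lowest in cortical markers, with those markers as a covariate, and RefSeq starts. Depth was 32814841 to 48291175 counts. The result of 1 marker gene is not reported here.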

Additional observations from a re-analysis of the deposited data

Results flagged for a closer look

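For the 10 genes in each genotype, the highest and lowest of the 7 libraries were set against the others by Dixon's test of a single distant value, which chance passes in about 1 in 20 groups of normal values. A single high library stood apart in 12 of the 20 groups on the CPM scale, but in 1 (Lef1, WT 7) on the log2 CPM scale. The values in CPM are skewed, the genes were chosen with their levels known and vary together, so the chance rate cannot be set against these counts. On the CPM scale HET 4 stood apart from the other HET libraries for Tcf7l2 (261.2 CPM), Lef1 (31.0), Prkcd (390.4), Gbx2 (21.7), Shox2 (94.0) and Ntng1 (231.6). WT 7 stood apart from the other WT libraries for Tcf7l2 (48.1 CPM), Lef1 (9.05), Prkcd (170.6), Shox2 (26.8), Lhx9 (9.72) and Ntng1 (100.5). Neither Zic1, Zic4 nor Slc17a6 had such a library in either genotype.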

How the results depend on the processing

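The number of members called was 0 in edgeR under every filter, scaling, replicate block and left-out library tried. It was 2 in DESeq2 (8.38% of all genes) and 1 in limma-voom (10.7%). Of 19 other thalamic genes, edgeR called 0 (0.970% of all genes) and limma-voom 1 (Esrrg, higher, 10.7%). With 1 library left out edgeR called 0 to 1, with Esrrg called without HET 6 (6.09% of all genes). Without the 3 libraries lowest in cortical markers it called 1 (Cdh6, lower, 3.78%). Of 19 TCF/LEF partner and 12 target genes, edgeR called 1 (0.970% of all genes), DESeq2 5 (8.38%) and limma-voom 7 (10.7%). EdgeR called 0 with the replicate block (0.0554% of all genes), without a filter and with the cortical covariate. With 1 library left out the count was 0 to 5, with 5 without HET 6 (6.09%) and 5 without WT 4 (9.18%). It was 0 without the 2 (0.0704%) and 3 without the 3 libraries lowest in cortical markers (3.78%). The share of all genes called moved with the setting as well, and the cause was not tested.

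The log2 fold change of Prkcd ran from -0.11 (without HET 4) to 1.94 (without WT 7) with 1 library left out, and was -0.39 without the 2 and -0.41 without the 3 libraries lowest in cortical markers, and -0.99 with the cortical covariate, under which Zic1 stood at -0.052, Zic4 at -0.22 and Gbx2 at -0.64. Tcf7l2, Lef1, Slc17a6, Shox2, Lhx9 and Ntng1 were above 0 in all 24 fits.

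Replicate numbers are not stated to pair HET and WT mice. Same-numbered libraries deviated from their group means with r from -0.28 to 0.33, and 1 HET library correlated best with its own number. With the replicate block 10 genes were called, against 175 without it, and 0 members.

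Within 1 kb of the start, 1 member had a HET peak and 0 a WT peak; with RefSeq starts the counts were 3 and 2. Gbx2 and Shox2 had 0 to 2 counts in single libraries, which were not those of lowest depth. WT 1 and WT 3, with 0 counts for Gbx2, held 41176490 and 45107176 counts in all. WT 5, the lowest at 32814841, had 45 counts for Gbx2 and 26 for Shox2.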

Other observations

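The paralogs of the members did not share one direction. Of 16 tested, 0 passed in edgeR (0.970% of all genes), with 3 higher and 2 lower in HET at an unadjusted p under 0.05 (22.2%). DESeq2 called 1 (8.38% of all genes) and limma-voom 0 (10.7%). Zic2, which encodes a zinc-finger transcription factor, stood at 38.1 ± 13.4 CPM in HET and 22.2 ± 8.74 in WT (SD, n = 7 each). It was 61.8 CPM in HET 4 and 34.8 in WT 4, the highest libraries of their genotypes. Gbx1 and Lhx8 followed other libraries than Gbx2 and Lhx9: both were highest in WT 4, at 9.76 and 14.4 CPM, and in HET highest in HET 5, at 8.08 and 11.7 CPM, where the striatal markers also had their HET maximum. The protein kinase C genes Prkca and Prkcb were lowest in HET 4, at 62.8 and 176.4 CPM, where Prkcd was highest. These paralogs were chosen for mention after their values were seen.

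Other thalamic genes had a peak within 5 kb of the start for 10 of 19 in HET and 5 of 19 in WT, genes for partners of TCF/LEF proteins for 18 and 17 of 19, and TCF/LEF target genes for 5 of 12 in each, against 71.2% and 63.5% of all genes. The HET list is the longer, with 30862 peaks against 19272. Counts at equal list length were not made for these genes, so the lists cannot be compared for openness.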
